A study of Mus musculus with 11 samples.

Results

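Immediate early genes are described here by 10 genes: Fos, Fosb, Jun, Junb, Jund and Atf3, which code for AP-1 or related bZIP proteins, Egr1, the response genes Ier2 and Ier3, and Dusp1. They were chosen by symbol from the 37991 gene IDs of the count table, and all 10 were found and passed the filter on low counts in every comparison. HSC (hematopoietic stem cells) of C57BL/6 mice aged 8 weeks were sorted from bone marrow as Lin- CD48- c-Kit+ Sca1+ CD135- CD150+ cells, in aliquots of 1000 cells, and polyA RNA was measured by RNA-Seq after cDNA amplification. NA10hd HSC (4 libraries, genotype label NA transgenic) carry the NUP98-HOXA10HD fusion behind a loxP-stop-loxP cassette at ROSA26, with a 3xFlag tag and IRES-Tdtomato, opened by Vav-Cre. NV HSC (3 libraries, label NrasG12D transgenic) carry LSL NrasG12D/+ opened by Vav-Cre. Control HSC (4 libraries, label wild type) came from littermates whose alleles the labels do not detail. Vav-Cre acts throughout the blood system.

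Immediate early genes are transcribed within minutes of a signal and need no new protein for it, because the factors that read their promoters, such as SRF with its Elk partners and CREB, are already in place and are switched on by ERK, p38 and other kinases. Fos proteins pair with Jun proteins through a leucine zipper to form AP-1, Egr1 is a zinc finger factor, and Dusp1 is a phosphatase that turns MAP kinases off again. In HSC, Egr1 and the AP-1 genes have been linked to quiescence, and the same genes are known to respond to tissue dissociation and sorting.

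The promoters of 8 of the 10 genes were found in RefSeq, and the 200 bases before the start site are shown for the 5 that code for Fos or Jun proteins or Dusp1 and that were lower in NV HSC, so that the letters shared by some of them can be seen. Coordinates are of GRCm38.p6. The stretches are chr12:85473690-85473889 on the plus strand for Fos, and on the minus strand chr7:19310046-19310245 for Fosb, chr8:84978749-84978948 for Junb, chr17:26508473-26508672 for Dusp1 and chr4:95052223-95052422 for Jun. Each is written 5′ to 3′ along the gene, and capitals mark TGACG, the core of the CREB and ATF site, on either strand.
Fos: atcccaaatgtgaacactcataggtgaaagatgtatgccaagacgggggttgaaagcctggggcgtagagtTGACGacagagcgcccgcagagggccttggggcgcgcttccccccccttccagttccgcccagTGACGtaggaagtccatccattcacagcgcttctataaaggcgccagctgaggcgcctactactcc
Fosb: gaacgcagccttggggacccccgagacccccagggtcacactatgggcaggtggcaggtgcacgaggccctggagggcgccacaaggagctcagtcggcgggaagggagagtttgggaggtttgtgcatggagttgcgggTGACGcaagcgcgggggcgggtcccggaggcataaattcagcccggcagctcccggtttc
Junb: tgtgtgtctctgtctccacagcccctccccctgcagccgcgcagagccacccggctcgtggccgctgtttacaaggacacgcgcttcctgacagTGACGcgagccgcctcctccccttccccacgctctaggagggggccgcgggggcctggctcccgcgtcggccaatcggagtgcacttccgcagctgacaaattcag
Dusp1: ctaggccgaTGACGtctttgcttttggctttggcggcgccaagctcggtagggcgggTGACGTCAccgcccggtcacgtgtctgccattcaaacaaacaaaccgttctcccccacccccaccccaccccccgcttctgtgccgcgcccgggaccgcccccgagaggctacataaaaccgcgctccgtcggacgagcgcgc
Jun: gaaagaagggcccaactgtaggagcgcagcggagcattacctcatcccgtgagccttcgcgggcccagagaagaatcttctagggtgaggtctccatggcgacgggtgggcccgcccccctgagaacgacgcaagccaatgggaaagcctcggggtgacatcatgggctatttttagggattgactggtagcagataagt

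TGACG was found on either strand within 250 bases upstream of the start in 5 of the 8 promoters (Fos, Fosb, Junb, Dusp1 and Atf3), against 17.8% of all 32851 RefSeq promoters. In Fos it lay 66 to 62 and 129 to 125 bases upstream, in Fosb 60 to 56 and in Junb 106 to 102. In Dusp1 the full palindrome TGACGTCA, which holds TGACG on both strands, lay 143 to 136 bases upstream, and 1.55% of all promoters hold it. Other motifs were scarcer among the 8. The AP-1 site TGACTCA was in 0 of them (4.46% of all promoters), the CArG box that SRF binds in 0 (1.47%), the Egr site GCGGGGGCG in Fosb (2.57%), TATAAA in Fos (12.4%) and CCAAT in Ier3, Jun and Junb (33.8%). These matches describe letters in a window and no binding was measured. Sites further than 250 bases upstream were not searched, nor were the promoters of Egr1 and Ier2, which had no entry. A count of 0 therefore does not show that a gene lacks the site.

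Levels were compared between genes as CPM (counts relative to the library total, scaled by TMM) per kilobase of exon. In control HSC, Fos was highest at 1357 CPM per kb, followed by Ier2 at 438, Egr1 at 382, Dusp1 at 253 and Junb at 208. Fosb, Ier3 and Jun followed at 93.5, 88.9 and 87.9 CPM per kb, Atf3 at 65.4 and Jund at 7.30. Fos thus stood far above its partner genes. Ier2 and Egr1, and likewise Fosb, Ier3, Jun and Atf3, differed from their neighbour in this order by less than the larger of the SDs between libraries. In NV HSC the first 5 kept this order, at 655, 238, 151, 137 and 105 CPM per kb. In NA10hd HSC the mean of Junb (315 CPM per kb) stood above that of Dusp1 (208), by less than the SD of Junb between libraries.

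The genes are short: their spans on NCBIM37 run from 1240 to 13045 bases, and Jun, Junb, Jund and Ier2 have a single exon. Exons of Egr1, Jun and Jund overlap an annotated gene on the opposite strand (Gm17507, BC042782 and Gm11175), and no gene overlapped the exons of the other 7. The strand setting of the counting is not given in the sources used here, so reads from both genes cannot be told apart at these 3, and the low level of Jund in particular is uncertain. Counts per gene and library ran from 105 to 37219, over total counts of 5464815 to 14283008 per library. The study calls its libraries biological replicates, and the labels do not say which mice each came from, so p-values measure the spread between these libraries. Xist and Y-linked counts differed between libraries: NA10hd replicate 4 had Xist counts only, NA10hd replicates 1 to 3 and control replicates 1 and 4 had Y-linked counts only, and the other 5 libraries had both. The sort markers Kit, Ly6a and Slamf1 summed to 605 to 968 CPM, and the markers gated out by the sort to 6.06 to 22.5 CPM, with Cd2 and Cd3e at 0 in all libraries.

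The first question was whether the Ras mutation changed immediate early transcripts in HSC. In NV against control HSC, 7 of the 10 genes were lower (adjusted p under 0.05 over all tested genes and a fold change above 1.5 in edgeR's quasi-likelihood test): Fos, Fosb, Jun, Junb, Egr1, Ier2 and Dusp1. Over all 13462 tested genes, 2.21% were lower by the same rule, and 4.76% were called in either direction. The 7 genes were 1.85-fold to 2.66-fold lower, and the remaining 3 were also below control on average. With all 3 groups in one fit, 2 of the 7 were called (Egr1 and Fosb). The median log2 fold change of the 10 genes was -0.94, beside -0.01 over all tested genes, of which 51.4% were below 0. At an unadjusted p under 0.05 there were 9 of the 10, beside 19.5% of all tested genes. In 8 of the 10 the NV libraries lay below all control libraries, beside 9.37% of all tested genes. In bulk libraries, fewer cells with a transcript and less of it per cell cannot be told apart.

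**Figure D1:**
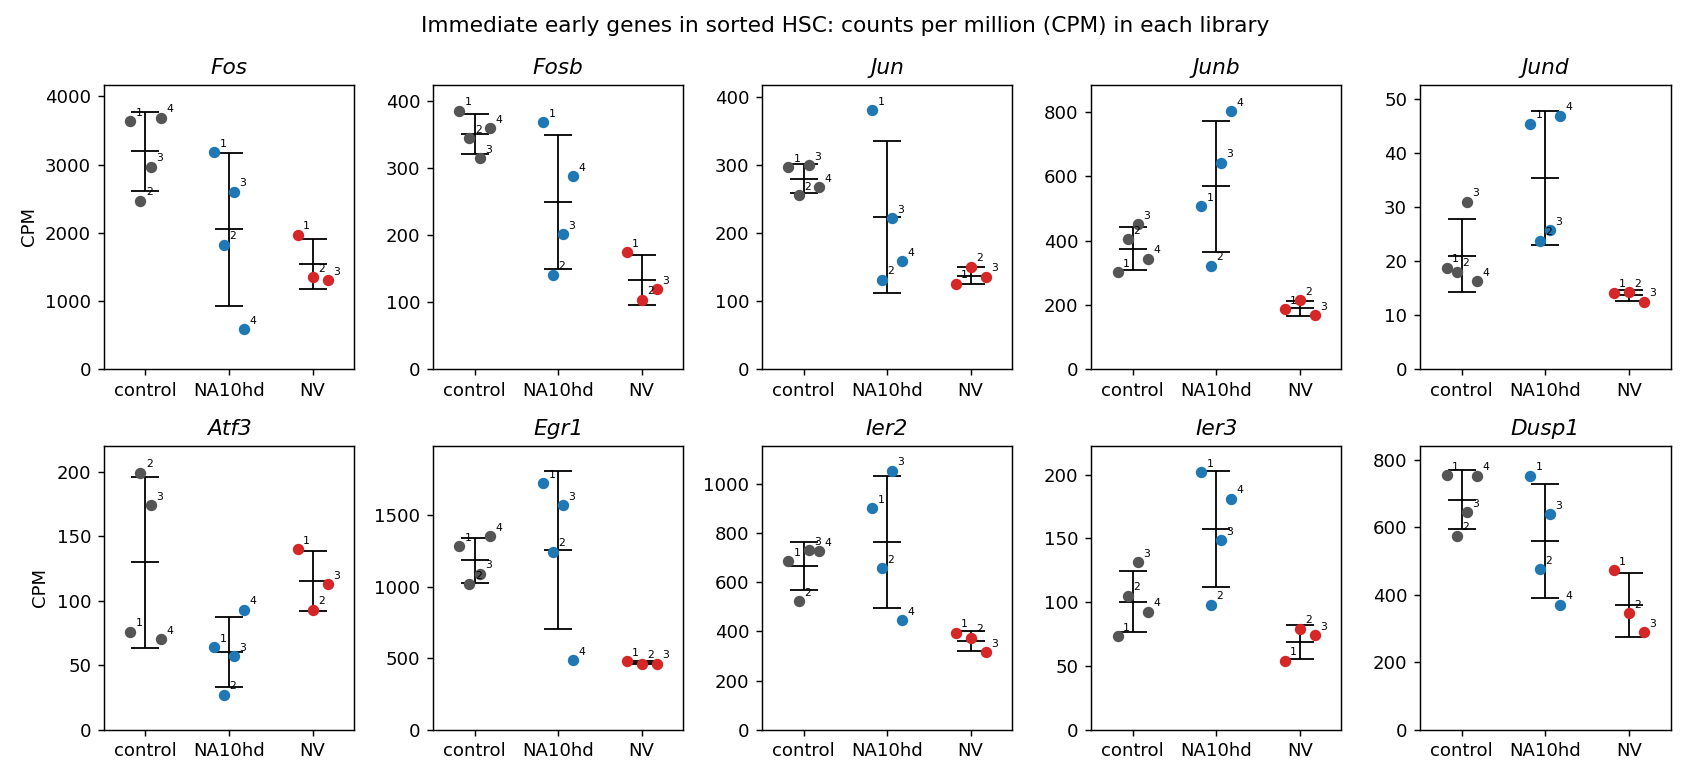
CPM of the 10 genes (vertical axes, linear from 0) in each library of control, NA10hd and NV HSC; points are libraries with their replicate numbers, and bars give the mean and SD (n = 4, 4 and 3). The 3 NV libraries sit below every control library for 8 genes, with overlap for Ier3 and Atf3, and the NA10hd libraries spread widely, with replicate 4 at 586 CPM for Fos.

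Fos (ENSMUSG00000021250, chromosome 12, 86814840 to 86818223 of NCBIM37), the most abundant AP-1 transcript here, had 3639, 2472, 2967 and 3688 CPM in control replicates 1 to 4 and 1967, 1349 and 1302 CPM in NV replicates 1 to 3. The NV libraries lay below every control library without overlap. The log2 fold change was -1.06 (standard error 0.17, adjusted p = 0.00359). The means were 3191 ± 582 CPM over 4 control libraries and 1539 ± 371 CPM over 3 NV libraries (mean ± SD).

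Fosb (ENSMUSG00000003545, chromosome 7, 19888070 to 19895394), a second Fos protein that pairs with Jun, had 385, 345, 315 and 359 CPM in control and 174, 103 and 119 CPM in NV libraries. All 3 NV libraries were under every control library. Its log2 fold change was -1.41 (standard error 0.17, adjusted p = 0.00103), and NV HSC had 37.6% of the control level.

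Jun (ENSMUSG00000052684, chromosome 4, 94715725 to 94718913), the founding Jun partner of Fos, had 297, 256, 300.3 and 268 CPM in control and 125, 151 and 135.5 CPM in NV libraries. Both groups were tight and far apart. The log2 fold change was -1.04 (standard error 0.12, adjusted p = 0.000842).

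Junb (ENSMUSG00000052837, chromosome 8, 87500811 to 87502617), an AP-1 member known to restrain myeloid growth and HSC proliferation in mice, had 301.5, 404.5, 450.9 and 344 CPM in control and 185.5, 213 and 167 CPM in NV libraries. Again every NV library was under every control library. The log2 fold change was -0.997 (standard error 0.15, adjusted p = 0.00273), or 50.1% of the control level.

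Jund (ENSMUSG00000071076, chromosome 8, 73221638 to 73224515), the Jun gene that is the least dependent on stimulation, had 18.8, 18, 31.0 and 16.3 CPM in control and 14.2, 14.3 and 12.46 CPM in NV libraries. The groups did not overlap, but control replicate 3 stood apart and the difference did not pass the test. Its log2 fold change was -0.63 (standard error 0.27, adjusted p = 0.227), and -0.38 without control replicate 3.

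Egr1 (ENSMUSG00000038418, chromosome 18, 35020861 to 35024638), the zinc finger factor that loss-of-function work links to HSC quiescence and retention, had 1282, 1016, 1092 and 1352 CPM in control and 480.7, 461.1 and 460.3 CPM in NV libraries. The NV libraries were almost alike and all under every control value. The log2 fold change was -1.35 (standard error 0.11, adjusted p = 8.59e-05), and NV HSC had 39.3% of the control level.

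Ier2 (ENSMUSG00000053560, chromosome 8, 87185230 to 87186751), a nuclear response gene, had 686, 523, 731 and 726 CPM in control and 395.5, 374 and 316 CPM in NV libraries, without overlap. Its log2 fold change was -0.89 (standard error 0.14, adjusted p = 0.00299). Ier3 (ENSMUSG00000003541, chromosome 17, 35958629 to 35959868), known as a regulator of apoptosis and ERK signalling, behaved less clearly. It had 73.3, 105, 131 and 92.5 CPM in control and 54.0, 79.1 and 74.1 CPM in NV libraries, and the groups overlapped at control replicate 1. Its log2 fold change of -0.55 (standard error 0.20) had an adjusted p of 0.146.

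Dusp1 (ENSMUSG00000024190, chromosome 17, 26642535 to 26645464), which removes phosphate from p38, JNK and ERK, had 755, 575, 645 and 753.5 CPM in control and 474, 346 and 289 CPM in NV libraries, without overlap. Its log2 fold change was -0.89 (standard error 0.16, adjusted p = 0.0084). Without NV replicate 2, with NV reduced to 2 libraries, its log2 fold change was -0.85 and missed the threshold (adjusted p = 0.0517). The other 6 genes were called whichever library was left out.

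Atf3 (ENSMUSG00000026628, chromosome 1, 192994175 to 193007219), a stress-induced bZIP factor that acts mostly as a repressor, did not follow the others. Control libraries fell apart into 76.0 and 70.1 CPM (replicates 1 and 4) and 199 and 174 CPM (replicates 2 and 3), and NV libraries had 139.8, 93.1 and 113 CPM. The split among control libraries matched their Xist and Y-linked counts, since replicates 2 and 3 held both and replicates 1 and 4 Y-linked counts only. It matched their total counts as well, 10639180 and 12610189 in replicates 2 and 3 and 5464815 and 7190197 in replicates 1 and 4. That mix and depth cannot be told apart here. The log2 fold change was -0.18 (standard error 0.32, adjusted p = 0.821). Against control replicates 2 and 3 alone, which have the same mix as the NV libraries, it was -0.70 (adjusted p = 0.0884).

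The NV libraries all held Xist and Y-linked counts, so they were also set against control replicates 2 and 3 alone, which held both. These were also the deeper control libraries. Egr1, Fos, Fosb, Jun, Junb and Ier2 were lower there too, with log2 fold changes of -1.18, -0.82, -1.32, -1.02, -1.18 and -0.80, and Dusp1 missed the threshold at -0.73 (adjusted p = 0.0871). Jund, Ier3 and Atf3 were further below control than with all control libraries, at -0.85, -0.78 and -0.70, and still did not pass (adjusted p = 0.205, 0.087 and 0.0884). When NA10hd libraries shared the estimate of the spread (all 3 groups in one fit), only Egr1 and Fosb were called. The fold changes of the other 5 then ranged from -1.05 for Fos to -0.88 for Ier2, with adjusted p of 0.249 (Fos), 0.0964 (Jun), 0.0725 (Junb), 0.0954 (Ier2) and 0.0817 (Dusp1).

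Other marker groups moved between the same libraries. Among the 7 HSC markers described here, Procr and Fgd5 were lower in NV HSC, while Mecom, Hlf, Hoxb5 and Ctnnal1, at log2 fold changes of -0.31, -0.47, -1.12 and -0.59, and Tek, at 0.42, were not called. Procr had 124 to 138.5 CPM in control and 69.3 to 90.6 CPM in NV libraries (log2 fold change -0.72, adjusted p = 0.00871), and Fgd5 had 63.9 to 111 CPM and 25.2 to 57.1 CPM (-1.13, adjusted p = 0.0284). The 9 endothelial and stromal markers summed to 110 to 163 CPM in control and 50.1 to 71.8 CPM in NV libraries, with none of the 9 at 0 in all libraries. Their part in the lower immediate early transcripts was not tested. Myeloid markers did not separate the groups, at 745 to 946 CPM in control and 746 to 801 CPM in NV libraries.

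**Figure D2:**
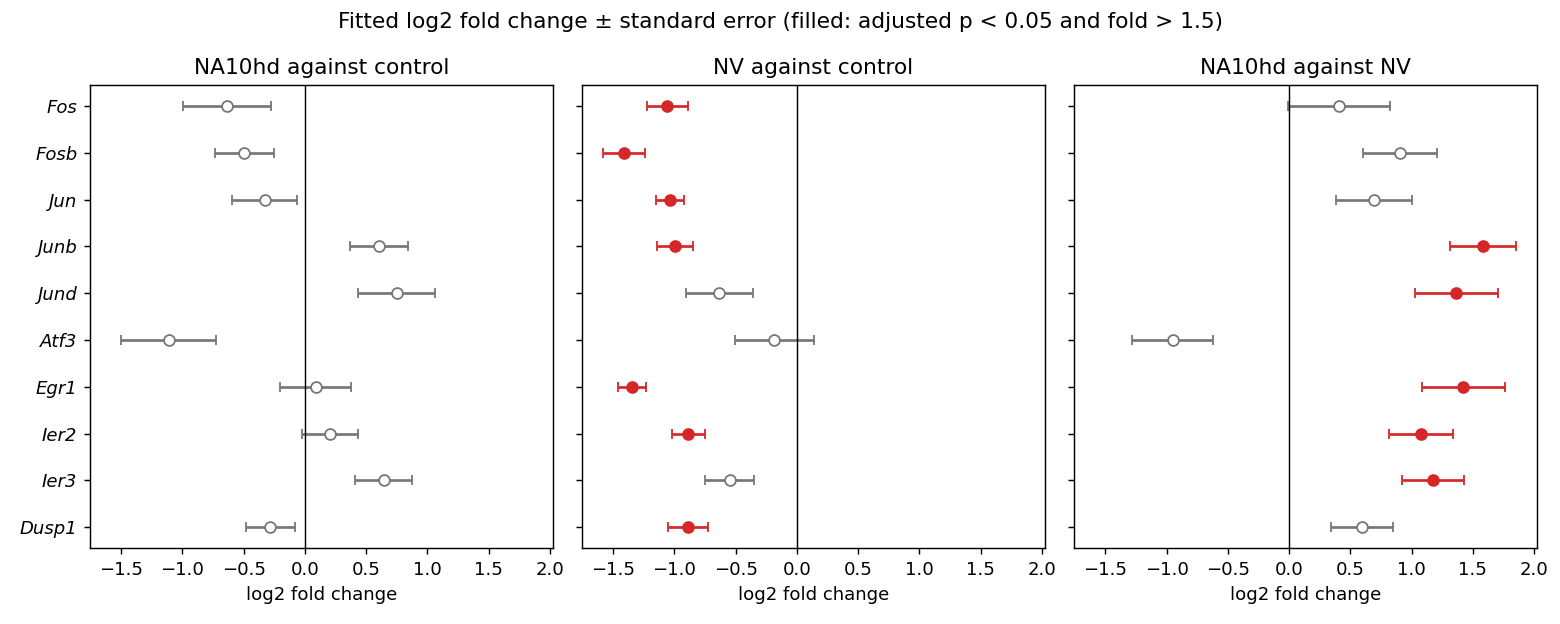
Fitted log2 fold change (horizontal axes) of each gene in the 3 comparisons, with its standard error as the bar; filled red points passed an adjusted p of 0.05 and a fold of 1.5. All 10 points lie left of 0 in NV against control (7 filled), they fall on both sides in NA10hd against control (0 filled), and 9 lie right of 0 in NA10hd against NV (5 filled).

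The same question was then put for the fusion gene. No immediate early gene was called against control by edgeR (0 of 10, beside 0.00766% of 13060 tested genes). At an unadjusted p under 0.05 there were 4 of the 10 (Junb, Jund and Ier3 above control, Atf3 below), beside 11.9% of all tested genes. None of the 10 had NA10hd and control libraries without overlap, beside 7.83% of all tested genes. The log2 fold changes went both ways, 5 above and 5 below 0, with a median of -0.10 (48.5% of all tested genes were below 0) and adjusted p from 0.305 to 0.929. This comparison and that of NV share the control libraries.

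Junb, Jund and Ier3 were above control on average. For Junb the NA10hd libraries had 508, 321, 643 and 803.5 CPM, of which 3 exceeded the highest control library, and the log2 fold change was 0.60 (standard error 0.24, adjusted p = 0.355). Jund had 45.5, 23.8, 25.8 and 47.0 CPM in NA10hd libraries, and its log2 fold change was 0.75 (standard error 0.32, adjusted p = 0.374). Ier3 had 202, 97.9, 148.5 and 181 CPM, at 0.65 (standard error 0.23, adjusted p = 0.319). All 3 overlapped control.

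Fos, Fosb and Jun were below control on average in NA10hd HSC, with wide spread. Fos had 3179, 1826, 2599 and 586 CPM in NA10hd replicates 1 to 4, and its log2 fold change was -0.64 (standard error 0.36, adjusted p = 0.504). Fosb had 369, 141, 201 and 287 CPM, at -0.49 (standard error 0.24, adjusted p = 0.438). Jun had 381, 131, 222 and 158 CPM, at -0.33 (standard error 0.27, adjusted p = 0.664), so replicate 1 was above and the other 3 below all control libraries. The Jun difference was -0.71 without NA10hd replicate 1 and -0.14 without replicate 2.

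Egr1 and Ier2 had NA10hd libraries on both sides of control. Egr1 had 1723, 1244, 1569 and 486.3 CPM, and its difference was 0.09 on the log2 scale (standard error 0.29, adjusted p = 0.929). Ier2 had 902, 658, 1054 and 445 CPM, at 0.20 (standard error 0.23, adjusted p = 0.776). In both, replicate 4 was the lowest of the group and lay under every control library.

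Dusp1 had 753, 477, 640 and 371 CPM in NA10hd libraries, and the difference was -0.28 on the log2 scale (standard error 0.20, adjusted p = 0.622). Atf3, at 64.0, 27.0, 56.8 and 93.1 CPM, had a log2 fold change of -1.11 with all libraries (standard error 0.38, adjusted p = 0.305). Its NA10hd libraries overlapped only the 2 lower control libraries, those with Y-linked counts only. Between the libraries with Y-linked counts only (NA10hd replicates 1 to 3, control replicates 1 and 4), the Atf3 difference was -0.57, close to -0.66 for Fosb and -0.53 for Fos. Junb, Jund and Ier3 were at 0.61, 0.85 and 0.85 there, and 0 of the 10 genes were called (adjusted p from 0.989 to 1).

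NA10hd replicate 4, the library with Xist counts only, had the lowest Fos, Egr1, Ier2 and Dusp1 of its group and the highest Junb, Jund and Atf3. This library also had the fewest gene IDs with a count of all 11 libraries (13859, beside 14430, 15361 and 15455 in NA10hd replicates 1 to 3). The part of that in these values was not tested. Without NA10hd replicate 4 the log2 fold changes against control were 0.36 for Egr1, 0.39 for Ier2, -0.33 for Fos and -1.40 for Atf3, and 0 of the 10 genes were called. The coefficient of variation (SD over mean) of the 10 genes had a median of 38.0% in NA10hd libraries, 16.1% in control and 15.8% in NV, and it was larger in NA10hd than in control for 9 of the 10. Across the whole table NA10hd libraries also differed more from one another: the chi-square per degree of freedom between pairs was 41.9 to 66.0, against 6.86 to 25.9 for control and 15.8 to 23.5 for NV.

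The mutant genotypes were then compared directly. Of the 10 genes, 5 were higher in NA10hd than in NV HSC (Junb, Egr1, Jund, Ier3 and Ier2), beside 2.3% of 13461 tested genes that were higher by the same rule and 5.09% called in either direction. Left-out libraries moved this count between 0 (NV replicate 3) and 5. The median log2 fold change of the 10 was 0.99, beside 0.01 over all tested genes, and all but Atf3 were above 0, while 49.2% of all tested genes were below 0. At an unadjusted p under 0.05 there were 9 of the 10, beside 19.5% of all tested genes. DESeq2 called 6 of the 10 here, beside 10.8% of the genes it tested, 7 in NV against control, beside 6.98%, and 0 in NA10hd against control, beside 1.99%.

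Junb was at 569 ± 204.5 CPM over 4 NA10hd libraries and 189 ± 23.2 CPM over 3 NV libraries (mean ± SD). The lowest NA10hd library (321 CPM) stood above the highest NV library (213 CPM), and the log2 fold change was 1.58 (standard error 0.27, adjusted p = 0.00755). Egr1 was at 1.42 (standard error 0.34, adjusted p = 0.0369), Jund at 1.37 (standard error 0.34, adjusted p = 0.0419), Ier3 at 1.18 (standard error 0.25, adjusted p = 0.0243) and Ier2 at 1.07 (standard error 0.26, adjusted p = 0.0393). These 5 genes did not overlap between the groups, beside 9.63% of all tested genes that were higher in NA10hd without overlap.

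The Fos genes, Jun, Dusp1 and Atf3 did not pass. On the log2 scale Fos differed by 0.41 (standard error 0.42, adjusted p = 0.677), Fosb by 0.90 (standard error 0.30, adjusted p = 0.118), Jun by 0.69 (standard error 0.31, adjusted p = 0.246) and Dusp1 by 0.59 (standard error 0.25, adjusted p = 0.217). Atf3 was the 1 gene below 0, at -0.95 (standard error 0.33, adjusted p = 0.131). Fosb did pass with DESeq2 (adjusted p = 0.0333), with all 3 groups in one fit (0.0462) and without NA10hd replicate 2 (0.0369). Fos ranged from 0.12 without NA10hd replicate 1 to 0.72 without NA10hd replicate 4, and passed with a replicate block (0.71, adjusted p = 0.0383). In that fit Jund (adjusted p = 0.0877) and Ier3 (0.0596) lost their calls and Atf3 was called lower (-1.30, adjusted p = 0.0124). NV has no replicate 4, so the block also takes NA10hd replicate 4 out of the comparison. Leaving that library out without a block gave 0.72 for Fos (adjusted p = 0.0878).

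Calls in this direct comparison changed with the libraries used. Junb was called without any one library except NV replicate 3 (adjusted p = 0.0687). Leaving out NV replicate 3 left 0 called genes, and leaving out NV replicate 1 or 2 left 1. Over all genes the calls fell likewise from 685 to 146 without NV replicate 3, 229 without replicate 1 and 153 without replicate 2. The fold changes stayed about as large in these 3 fits, with Egr1 at 1.41 to 1.44 and Junb at 1.57, 1.68 and 1.5 without NV replicates 1, 2 and 3. The count was 2 when NA10hd replicate 1 was left out and 3 when NA10hd replicate 3 was. Without NA10hd replicate 4 it was 5, namely Egr1 (log2 fold change 1.69, adjusted p = 0.000384), Ier2, Ier3 and Junb higher and Atf3 lower (-1.23, adjusted p = 0.0392), while Jund missed at an adjusted p of 0.0615. Of the 7 fits with a library left out, Egr1 was called only in this 1 (adjusted p from 0.051 to 0.173 in the others). Jund and Ier2 were called in 2 each, Ier3 in 4 and Junb in 6. Ier2 also lost its call with library totals without TMM factors (adjusted p = 0.0522). The NA10hd and NV libraries shared no mix of Xist and Y-linked counts, so genotype and that mix cannot be told apart here. Marker sums also separated these libraries: the 9 endothelial and stromal markers summed to 115 to 225 CPM in NA10hd and 50.1 to 71.8 CPM in NV libraries, the myeloid markers to 827 to 1073 CPM and 746 to 801 CPM, and the erythroid markers to 834 to 1230 CPM and 1341 to 1404 CPM. The HSC markers Procr, Hlf, Fgd5 and Hoxb5 were higher in NA10hd than in NV HSC without overlap, with log2 fold changes of 1.41, 0.83, 1.36 and 1.93 (adjusted p = 0.00379, 0.0276, 0.0218 and 0.012), while Mecom (0.41), Ctnnal1 (0.78) and Tek (-0.30) were not called. Their part in the result was not tested.

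**Figure D3:**
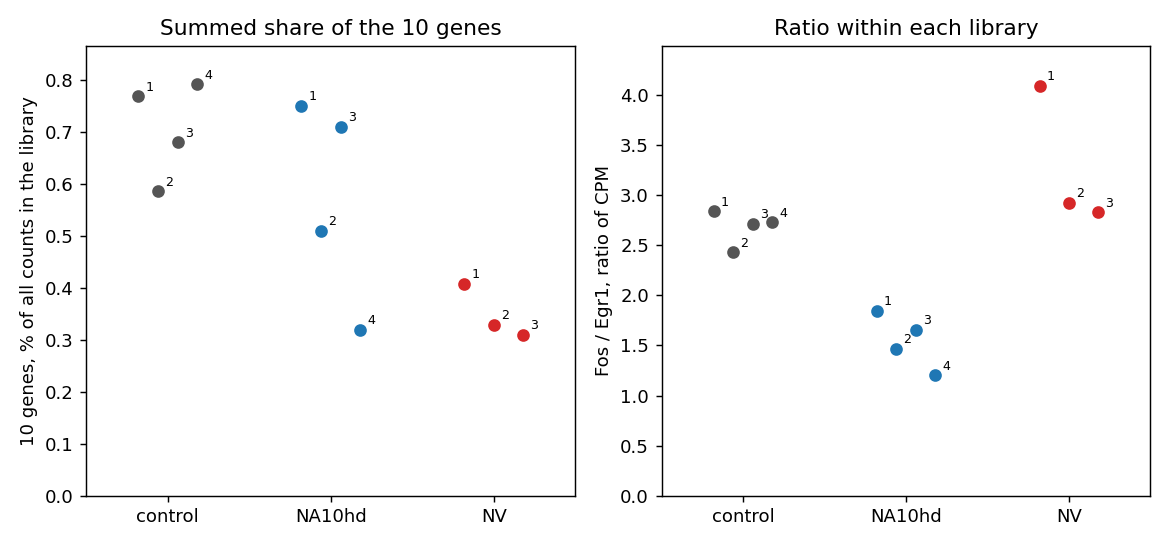
Left, summed counts of the 10 genes as a percentage of all counts in each library; right, ratio of Fos to Egr1 CPM within each library; points are libraries with replicate numbers. The 3 NV libraries (0.310% to 0.409%) lie below the control libraries (0.587% to 0.793%), and the 4 NA10hd ratios (1.21 to 1.85) lie below all others.

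The 10 genes together made up 0.587% to 0.793% of all counts in control, 0.310% to 0.409% in NV and 0.320% to 0.751% in NA10hd libraries. Fos alone gave 41.8% to 48.4% of these counts in control and 42.4% to 49.1% in NV libraries, but 17.0% to 39.1% in NA10hd libraries. The ratio of Fos to Egr1 CPM within a library, a measure picked after the values were seen and not tested, was 2.84, 2.43, 2.72 and 2.73 in control replicates 1 to 4. It was 1.85, 1.47, 1.66 and 1.21 in NA10hd replicates 1 to 4 and 4.09, 2.93 and 2.83 in NV replicates 1 to 3. Every NA10hd library was under every library of the other groups.

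The other genes of the same program were read from 4 lists (76 genes). In NV against control, 7 of 68 tested genes were called, beside 4.76% of all tested genes. All 7 were lower (2.21% of all tested genes): Dusp2, Dusp5, Klf4, Klf6, Maff, Rhob and Zfp36. The median over the 68 was -0.19. With NV replicate 2 left out 3 were called, with NV replicate 3 left out 4, and with all 3 groups in one fit 2. In NA10hd against control 0 of 67 were called by edgeR, beside 0.00766% of all tested genes. There were 10 at an unadjusted p under 0.05, beside 11.9% of all tested genes, and 1 by DESeq2, beside 1.99% of the genes it tested. In NA10hd against NV 4 of 67 were called, which is near the 5.09% of all tested genes. Btg2, Dusp2 and Nab2 were among them, all 3 higher in NA10hd. This count was 8 without NA10hd replicate 2, 1 without NA10hd replicate 3 or NV replicate 1, and 0 when NV replicate 2 or 3 was left out.

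Among other AP-1 and Egr family genes (14 listed, 9 tested), Maff alone was called in NV HSC, beside 4.76% of all tested genes. Maff, a small Maf protein that pairs with other bZIP factors, had 29.3 ± 9.39 CPM over 4 control libraries and 13.6 ± 2.39 CPM over 3 NV libraries (mean ± SD). Its difference on the log2 scale was -1.13 (standard error 0.28, adjusted p = 0.0353). The call was lost without control replicate 2 or 3 (adjusted p = 0.0808 and 0.0734), without NV replicate 1, 2 or 3 (0.114, 0.148 and 0.0768) and with all 3 groups in one fit (0.175). The median of the 9 was -0.14.

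Among other immediate early response genes (31 listed, 30 tested), 25 had log2 fold changes below 0 in NV HSC (51.4% of all tested genes were), with a median of -0.40, and 4 were called lower, beside 2.21% of all tested genes. Klf4 and Klf6 are zinc finger factors, Zfp36 destabilises AU-rich mRNA, and Rhob is a small GTPase of endosomes. Klf4 was at -1.16 (standard error 0.23, adjusted p = 0.0114), Rhob at -0.92 (standard error 0.15, adjusted p = 0.00396), Klf6 at -0.78 (standard error 0.16, adjusted p = 0.0135) and Zfp36 at -0.76 (standard error 0.16, adjusted p = 0.0165). Rhob was called whichever library was left out, while Klf4 and Zfp36 were lost without NV replicate 2 (adjusted p = 0.067 and 0.0854) and Klf6 and Zfp36 without NV replicate 3 (0.0708 and 0.091). Against control replicates 2 and 3 alone, Klf4 (0.0886) and Zfp36 (0.11) were lost, and with all 3 groups in one fit so were Klf4 (0.238), Klf6 (0.119) and Zfp36 (0.0932). Zfp36 was abundant, with 908 to 1138 CPM in control and 502 to 803.5 CPM in NV libraries. In the direct comparison Btg2, an antiproliferative gene, was higher in NA10hd (log2 fold change 0.79, standard error 0.20, adjusted p = 0.0478), and 25 of 28 tested genes of the list were above 0, with a median of 0.64, while 49.2% of all tested genes were below 0. The Btg2 call was kept without NA10hd replicate 2 and lost without any other single library (adjusted p from 0.0521 to 0.227), with a replicate block (0.0722) and with library totals without TMM factors (0.0541).

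Nr4a1, an orphan nuclear receptor of the same class, was above control in NV HSC without passing the threshold. NV libraries had 268 to 318 CPM and control libraries 115 to 251 CPM, without overlap (log2 fold change 0.60, standard error 0.23, adjusted p = 0.163). Control replicates 2 and 3, which have the same Xist and Y-linked mix as the NV libraries, had 251 and 245 CPM. Control replicates 1 and 4 were further away, at 115 and 145 CPM. Nr4a1 was picked after its values were seen.

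Among the other dual-specificity phosphatases (10 listed, 8 tested), Dusp2 and Dusp5 were lower in NV HSC, beside 2.21% of all tested genes. Dusp2, a nuclear phosphatase of MAP kinases, went from 552 ± 135.5 CPM (4 libraries, SD) to 252 ± 37.2 CPM (3 libraries, SD), at -1.14 (standard error 0.18, adjusted p = 0.00379). Dusp5, which acts on ERK in the nucleus, went from 54.0 ± 21.3 CPM (4 libraries, SD) to 19.9 ± 8.42 CPM (3 libraries, SD), at -1.45 (standard error 0.34, adjusted p = 0.026). The Dusp5 call was lost without control replicate 2 (adjusted p = 0.0614), without NV replicate 1 or 2 (0.103 and 0.132) and with all 3 groups in one fit (0.406), and the Dusp2 call was kept in each. The median of the 8 was 0.27, so the list as a whole was not below control. Dusp2 was also higher in NA10hd than in NV HSC (0.86, standard error 0.22, adjusted p = 0.0459), a call lost without NA10hd replicate 2 or 3 (0.0736 and 0.0798), without NV replicate 1, 2 or 3 (0.104, 0.209 and 0.234), with a replicate block (0.0671) and with library totals without TMM factors (0.0734).

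The inputs to the program, SRF with its partners and the MAP kinases (21 tested), showed 0 calls in NV against control by edgeR, beside 4.76% of all tested genes. At an unadjusted p under 0.05 there were 3, beside 19.5% of all tested genes, and the median was 0.06. Srf had 25.96 to 51.9 CPM in control and 35.4 to 40.9 CPM in NV libraries (log2 fold change 0.06, standard error 0.23, adjusted p = 0.921). Nab2, a corepressor that binds Egr proteins, had 21.6 ± 4.82 CPM over 4 control libraries, 36.6 ± 9.09 CPM over 4 NA10hd libraries and 11.1 ± 2.90 CPM over 3 NV libraries (mean ± SD). It was higher in NA10hd than in NV (1.71, standard error 0.33, adjusted p = 0.0158), and lost that call without NV replicate 2 or 3 (0.103 and 0.108).

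**Figure D4:**
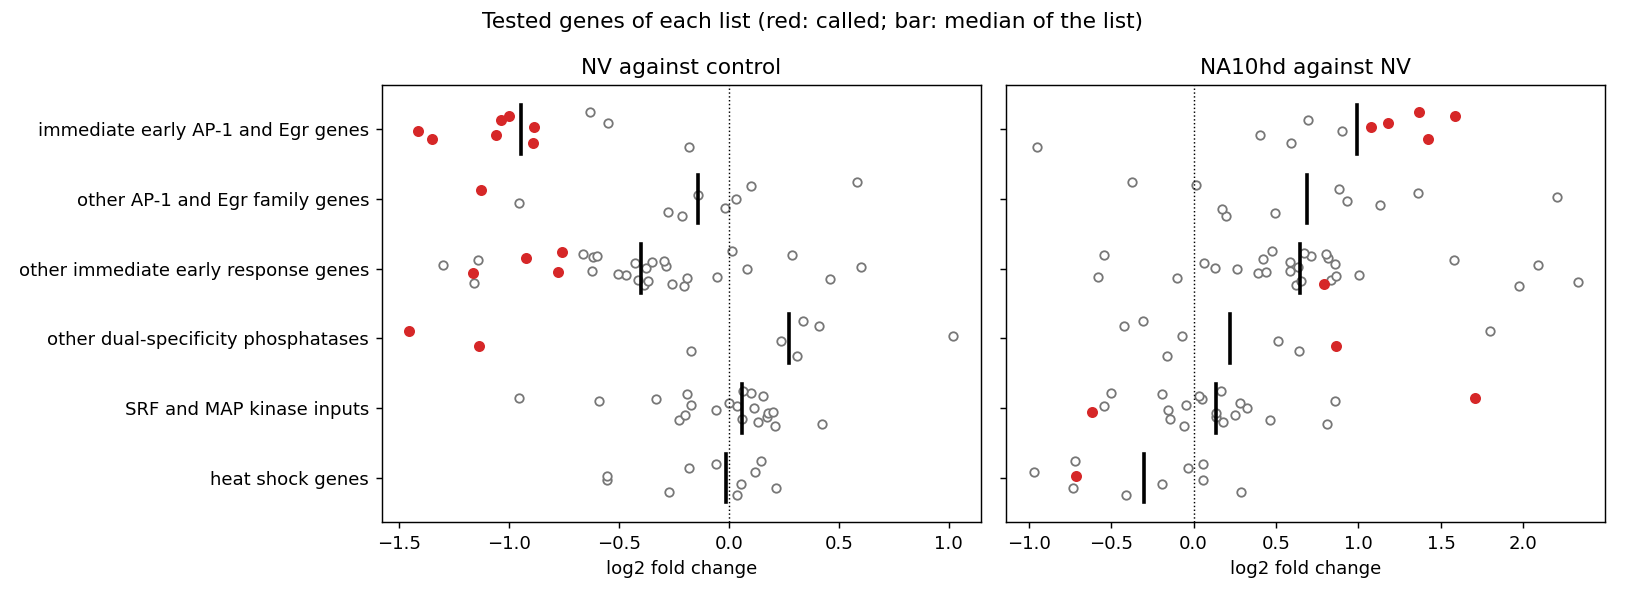
Fitted log2 fold change (horizontal axes) of every tested gene of the 10 immediate early genes, the 4 other lists of the program and the heat shock genes, for NV against control (left) and NA10hd against NV (right); red points were called and the black bar is the median of the list. In NV against control the medians are -0.94 for the 10 genes, -0.40 for other immediate early response genes and -0.01 for heat shock genes.

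Heat shock genes, another group that responds to handling of cells, were read alongside. In NV against control 0 of 10 tested were called by edgeR, beside 4.76% of all tested genes. At an unadjusted p under 0.05 there were 0, beside 19.5%, and the median log2 fold change was -0.01. Their summed CPM was 6084, 9735, 8193 and 5859 in control replicates 1 to 4 and 7719, 7939 and 7366 in NV replicates 1 to 3. Control replicates 2 and 3 thus lay above every NV library, and control replicates 1 and 4 below. Differences in handling between libraries were not tested. In NA10hd against control 0 of 9 were called, beside 0.00766% of all tested genes, with 2 at an unadjusted p under 0.05, beside 11.9%. In NA10hd against NV, Hspa8, a constitutive Hsp70 chaperone, was lower in NA10hd (-0.71, standard error 0.18, adjusted p = 0.0419), the 1 call of 10, beside 5.09% of all tested genes. That call was lost without NA10hd replicate 2 or 3 (adjusted p = 0.0788 and 0.0541) and without NV replicate 1, 2 or 3 (0.152, 0.175 and 0.167).

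The 10 genes were only partly correlated with one another. Within groups, the 45 pairwise Pearson correlations of log2 CPM had a median of 0.36 over the 11 libraries, from -0.52 to 0.98, and 28 were above 0. Without NA10hd replicate 4 the median was 0.52, from -0.14 to 0.97, and 44 were above 0. These points share library depth and scaling, and the values are descriptions.

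Genes elsewhere in the table were ranked by their Pearson correlation with the mean profile of the 10 genes over the 11 libraries, among 9489 genes. The closest were Cd38 (0.949), Gda (0.930), Ctsl (0.918), Pde6h (0.916) and Slc9a3r2 (0.900). Cd38, a surface enzyme that consumes NAD, had 29.6 ± 6.52 CPM over 4 control libraries, 28.5 ± 19.95 CPM over 4 NA10hd libraries and 8.67 ± 1.12 CPM over 3 NV libraries (mean ± SD). Of the 10 genes themselves, Jun (0.917), Dusp1 (0.874) and Fosb (0.868) followed the mean most closely, and Atf3 did not (-0.003). With each gene centred within its group, which takes out the differences between genotypes, the closest were Paip2 (0.951), Taf7 (0.933), Rpl5 (0.925), Slc25a20 (0.919) and Ptrh2 (0.916), and no gene was on both lists.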

How the data were processed

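RNA-Seq counts of 4 control, 4 NA10hd and 3 NV libraries were used. The authors aligned reads to NCBIM37 with Hisat2, and the deposited values are raw counts per gene from featureCounts, without normalization. Versions, annotation release and strand setting are not given in the sources used here. Libraries were grouped by their genotype labels. Symbols came from GENCODE of the same build (37205 of 37991 IDs).

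Each of the 3 comparisons was fitted on its own libraries with edgeR 4.0.16 in R 4.3.3 (TMM, filterByExpr, quasi-likelihood test, checked on simulated counts). A gene was called at a Benjamini-Hochberg adjusted p under 0.05 over all tested genes and a fold change above 1.5. CPM were scaled by TMM. Correlations used log2(CPM + 1) of genes with a mean of at least 10 CPM.

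The 10 genes and the lists were chosen with earlier results of these data known. Named genes were the 10, genes of the other lists called in any comparison (at most 6 per list and comparison, 4 heat shock genes) and the 5 most correlated genes of each ranking; Srf, Nr4a1 and the markers were added after their values were seen. Alternatives were DESeq2 1.42.0, its size factors, no filter, no fold threshold, a replicate block, all groups fitted together, libraries with the same Xist and Y-linked mix and each library left out. Library totals without TMM factors were added after seeing the data. Promoters came from the RefSeq table of GRCm38.p6 and were searched on both strands. Some named genes and markers are not reported here. Figures were drawn with matplotlib 3.10.9.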

Additional observations from a re-analysis of the deposited data

Results flagged for a closer look

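Among the 10 genes, Jund in control replicate 3 stood apart from the other control libraries, at 31.0 CPM against 16.3 to 18.8 CPM. Its gap to the next library was 0.831 of the range of the group, just above Dixon's 95% critical value for 4 libraries. Of 20 groups of values tested (the control and NA10hd libraries of each gene) this was the 1 that passed, and chance gives about 1 in 20. Groups of 3 libraries (NV) were not tested.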

How the results depend on the processing

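No pairing by replicate number was seen: same-numbered libraries deviated from their group means with correlations of -0.109 to 0.0339 over 10 pairs, none above 0.1. With so few libraries per group, a weak effect shared by same-numbered libraries could be missed. NV has no replicate 4, so a block in its comparisons also takes replicate 4 of the other group out. With a replicate block, 0, 7 and 5 of the 10 genes were called in NA10hd against control, NV against control and NA10hd against NV (the last with Fos and Atf3 gained, Atf3 as lower, and Jund and Ier3 lost), the other lists fell from 4 to 2 calls in NA10hd against NV, and Egr1 in NA10hd against control turned to -0.030. DESeq2 called 0, 7 and 6 of the 10 genes. With all 3 groups in one fit, NV against control had 2 calls among the 10 genes in place of 7 and 2 among the other lists in place of 7; over all genes it called 155 in place of 641. Among the other lists, NA10hd against control had 1 call (Klf10, outside the rule for named genes) by DESeq2 and by all 3 groups in one fit. NA10hd against NV had 8 by DESeq2, 8 by all 3 groups in one fit and 2 with library totals without TMM factors, a scaling that also moved the split over all genes from 309 higher and 376 lower to 244 and 459.

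With each library left out in turn, calls among the 10 genes ranged from 0 to 0 in NA10hd against control, 6 to 7 in NV against control and 0 to 5 in NA10hd against NV. Among the other lists they ranged from 0 to 0, from 3 (without NV replicate 2; 4 without NV replicate 3) to 8, and from 0 (without NV replicate 2 or 3) to 8 (without NA10hd replicate 2). Egr1 in NA10hd against control ranged from -0.096 (without NA10hd replicate 1; -0.045 without replicate 3) to 0.36, and Atf3 in NV against control from -0.39 to 0.096 (without control replicate 2). Over all genes, DESeq2 called 240, 1015 and 1495 in place of 1, 641 and 685 for NA10hd against control, NV against control and NA10hd against NV, all 3 groups in one fit called 39 and 1152 for the first and last, and control replicates 2 and 3 alone left 301 for NV. Every count of the 10 genes was at least 105, but amplified reads are not independent molecules, and the effect of depth was not tested. No comparison of NA10hd with NV between libraries of the same Xist and Y-linked mix was possible.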

Other observations

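Genes that mark long-term HSC differed between the same libraries. On the log2 scale, Procr, the endothelial protein C receptor, differed by -0.72 between NV and control and by 1.41 between NA10hd and NV HSC. Fgd5, a guanine nucleotide exchange factor used to label HSC, differed by -1.13 and 1.36, and all 4 differences were called by edgeR. Hlf (0.83) and Hoxb5 (1.93) were called higher in NA10hd than in NV HSC, and their differences of -0.47 and -1.12 in NV against control were not called. Tek, the receptor Tie2, was at 0.42 in NV against control and was not called.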
